A study of Mus musculus with 2 samples.

Results

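The genes described here were the 7 CXC chemokine ligands Cxcl1, Cxcl2, Cxcl3, Cxcl10, Cxcl16, Ppbp and Pf4, taken by symbol from the 32285 genes listed in the count matrices. All 7 had at least 20 UMIs (unique molecular identifiers, each standing for 1 captured mRNA) over both libraries, as did 16362 genes in all. Both single-cell RNA libraries came from myeloid-derived suppressor cells (MDSC) grown over 4 days in the cytokines IL-6 and GM-CSF, both at 50 ng/mL, from the bone marrow of C57BL/6 females 10 weeks old. The DAB library was cultured with 1.5 µM dabrafenib, a BRAF inhibitor, and the DMSO library with an equal volume of its solvent. Each condition was 1 library and the number of mice behind it is not stated, so no test between conditions was possible, and treatment cannot be told apart from any other difference between the libraries.

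The DMSO library held 9855 barcodes (median 8068 UMIs) and the DAB library 11631 (median 10273), with 152 barcode sequences found in both, and 9032 and 10476 cells remained after filtering. Itgam (CD11b), which defines myeloid cells, was found in 81.6% of the cells of the DMSO library and 84.1% of those of the DAB library, and S100a8 in 82.9% and 91.3%, whereas Cd3e, which defines T cells, stood at 0.217 CPM (UMIs of a gene per 1000000 UMIs of the cells concerned) in DMSO and 0.308 CPM in DAB. Cells were grouped into 26 clusters without use of the 7 ligand genes. Of these, 16 were named from marker genes and 10, holding 41.9% of DMSO cells and 36.2% of DAB cells, stayed unnamed and are given by letter. Levels are in CPM, and ratios are log2 of DAB over DMSO. A gene was counted as higher or lower when the log2 ratio reached 0.5 in size and its 95% interval left out 0. These intervals cover counting error only and are too narrow, because UMIs of 1 cell are not independent.

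CXC chemokines are small secreted proteins that steer leukocytes through G protein-coupled receptors. CXCL1, CXCL2 and CXCL3 carry the ELR motif and draw neutrophils through CXCR2, and myeloid cells release them when NF-κB is active. PPBP, the precursor of the CXCR2 ligand NAP-2, and PF4 are best known from platelet granules, CXCL10 is an interferon-induced ligand of CXCR3, and CXCL16 is a membrane-bound ligand of CXCR6 that proteases shed from dendritic cells and macrophages. The genes encoding 5 of the 7 lie in 1 row on mouse chromosome 5 (GRCm38, GENCODE annotation), all on the plus strand: Ppbp at chr5:90768518-90770063, Pf4 at chr5:90772435-90773383, Cxcl3 at chr5:90786103-90789600, Cxcl1 at chr5:90891241-90893115 and Cxcl2 at chr5:90903871-90905938. Cxcl10 lies apart at chr5:92346638-92348889 and Cxcl16 at chr11:70453983-70459984, both on the minus strand. Cxcl15, a further CXC ligand gene between Cxcl3 and Cxcl1, had 2 UMIs in the DMSO and 5 in the DAB library. Levels are compared between cells and libraries and not between genes, because the number of UMIs at the 5′ end depends on the transcript.

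The sequences shown first are those that set the CXCR2 ligands beside Cxcl10, stretches of 120 bases upstream of or across the transcript start (RefSeq, GRCm38.p6, written 5′ to 3′ on the gene's strand). Promoters of 6 of the 7 genes were matched, and Cxcl16 was not among them. Capitals mark matches, on either strand, to the κB-like core GGNNTTTCC and, in Cxcl10, also to the interferon response element core GAAANNGAA.
Cxcl1 (chr5:90891135-90891254, + strand): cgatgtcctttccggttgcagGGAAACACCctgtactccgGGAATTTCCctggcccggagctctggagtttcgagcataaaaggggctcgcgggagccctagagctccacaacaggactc
Cxcl2 (chr5:90903789-90903908, + strand): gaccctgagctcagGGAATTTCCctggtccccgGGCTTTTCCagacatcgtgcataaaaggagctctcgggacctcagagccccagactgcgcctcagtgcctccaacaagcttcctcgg
Cxcl3 (chr5:90785991-90786110, + strand): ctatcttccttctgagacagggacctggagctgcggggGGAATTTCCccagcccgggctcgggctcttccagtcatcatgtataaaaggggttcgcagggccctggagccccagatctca
Cxcl10 (chr5:92348990-92349109, - strand): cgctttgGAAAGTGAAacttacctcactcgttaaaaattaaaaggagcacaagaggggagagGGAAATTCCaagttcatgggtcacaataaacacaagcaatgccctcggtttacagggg

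Matches were counted in longer promoter windows, such as chr5:90890995-90891294 for Cxcl1, from which the stretches above were cut to hold the κB-like matches. The κB-like core occurred in 4 of the 6 windows, against 5.82% of 32851 mouse promoter windows. Cxcl1 and Cxcl2 held 2 matches each and Cxcl3 and Cxcl10 held 1 each, while Ppbp and Pf4 held none. GAAANNGAA occurred in the Cxcl10 window only among the 6 (8.56% of all windows), the C/EBP-ATF response element core TGATGNAA in none of them (3.97%), and TATAAA in Cxcl3 and Ppbp (13.6%). A match of letters is not a bound site.

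The mRNAs of the CXCR2 ligands also carry ATTTA pentamers in their 3′ untranslated regions, the element through which the decay factor TTP (Zfp36) binds inflammatory transcripts. The densest stretch of each is shown because the Zfp36 level is given with the related genes further on, and capitals mark ATTTA.
Cxcl1: ctATTTATTTAtgtATTTATTTAttc
Cxcl2: ttATTTATTTAtctatgtATTTAttt
Cxcl3: ttATTTAatgtttATTTAatatcaag

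Cxcl2 held 11 ATTTA, a number reached by 4.64% of 20636 mouse genes, Cxcl1 held 7 (11.4% of genes) and Cxcl3 held 5 (18.9%). Cxcl10 and Cxcl16 held 2 each, and Ppbp and Pf4 held 1 each, which 61.6% of genes reach. The transcripts of Cxcl2 and Cxcl3 share an unbroken run of 110 bases, at bases 61 to 170 of Cxcl2 and 57 to 166 of Cxcl3, close to the 5′ end that these libraries read. Reads that lie within that run cannot be assigned to either gene, so the levels of Cxcl2 and Cxcl3 are uncertain to that extent. The longest run that either shares with Cxcl1 was 23 bases.

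Over all cells, Cxcl3, Cxcl2 and Ppbp were higher in the DAB library, Cxcl16 was lower, and Cxcl1, Cxcl10 and Pf4 were neither. That was 3 of 7 higher, beside 13.7% of all genes, and 1 of 7 lower, beside 16.5%. The median log2 ratio was -0.02 for the 7 ligands and also -0.02 for all genes.

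**Figure D1:**
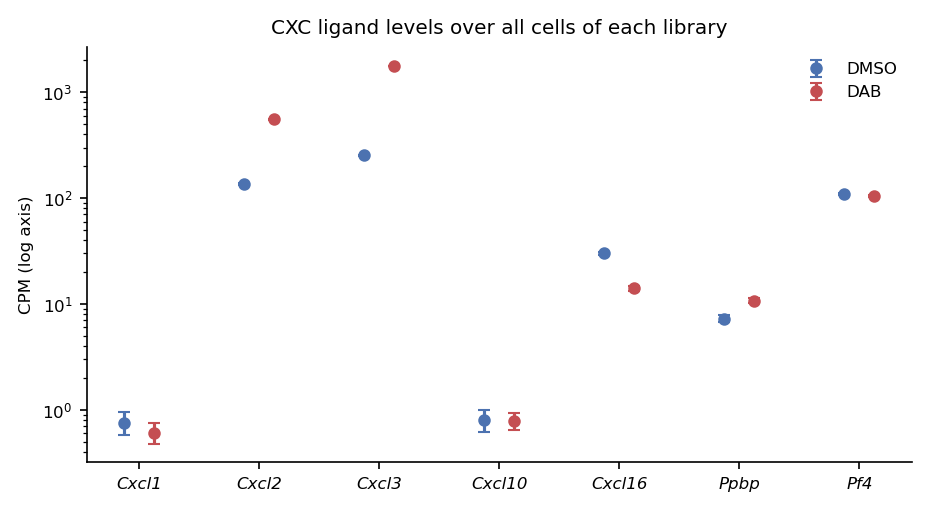
CPM (log axis) of the 7 CXC ligands over all cells of the DMSO library (blue) and the DAB library (red), with bars for 95% counting intervals, most of them smaller than the point. Cxcl2 went from 135 to 553 and Cxcl3 from 254 to 1767, Cxcl16 from 30.1 to 14.0, and the points for Pf4 and Cxcl10 lie side by side.

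Cxcl3, a CXCR2 ligand, stood at 254 CPM in the DMSO library (23369 UMIs) and 1767 in the DAB library (246900 UMIs), a ratio of 6.96 (95% interval 6.87 to 7.05). Cxcl2 stood at 135 (12419 UMIs) and 553 (77273 UMIs), a ratio of 4.10 (4.02 to 4.18). For both genes the difference was far beyond counting error. Neither ratio turned on single cells, since without the highest cell of each library the log2 ratio of Cxcl2 was 2.10, beside 2.04 with it.

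The share of cells with a UMI moved with the level. Every cell was thinned to 1500 UMIs, and 436 cells of the DMSO and 292 of the DAB library with fewer were set aside. Cxcl3 was then found in 12.6% of 8596 DMSO cells and 45.3% of 10184 DAB cells. For Cxcl2 these shares were 11.8% and 38.6%, and before thinning 23.8% and 59.8%. B cell-like cells, which measure free RNA because they should lack both genes, held a Cxcl3 UMI in 0.794% of their DMSO and 4.65% of their DAB members. They held a Cxcl2 UMI in 0 of 126 DMSO cells, where a floor of 3 cells would be 2.38%, and in 2.33% of DAB cells. The free RNA level was therefore itself higher in the DAB library, and classes near it are named as such. Before thinning, the UMIs were spread over more cells. The 10% of cells with most Cxcl3 held 90.3% of its UMIs in the DMSO library and 66.0% in the DAB library. For Cxcl2 these values were 83.1% and 58.6%. This spread is not separate from the share of cells with a UMI, which for Cxcl3 before thinning was 23.2% in DMSO and 61.6% in DAB. The 90th percentile cell carried 5 Cxcl3 UMIs in the DMSO and 71 in the DAB library, and the highest cell 340 and 755.

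Across cell classes, Cxcl2 was highest in the CC chemokine-high granulocyte-like cells (cluster E, led by Ccl3 and Gpnmb) in both libraries, at 581 CPM (DMSO) and 2429 CPM (DAB), with a log2 ratio of 2.06 that was 0.78 without alignment of the libraries. The order below them was mature PMN-like (polymorphonuclear, 291 and 1348), intermediate granulocyte-like (182 and 933) and macrophage-like cells (103 and 410), with log2 ratios of 2.21, 2.36 and 1.99. In the DMSO library the intervals of macrophage-like and granulocyte progenitor-like cells (97.9) overlapped, and in the DAB library no neighbours overlapped in the upper part of the order. The DMSO rank of the macrophage-like cells rested on 1 cell, which held 109 of their 295 Cxcl2 UMIs. Without the highest cell they stood at 65.8, below progenitor-like (95.2) and immature monocyte-like cells (79.4), with a log2 ratio of 2.43. Immature monocyte-like cells, which express F13a1 and cell cycle genes, followed at 82.8 and 276. The CC chemokine-high cells were named from markers such as Ccl3, which give no stage of maturation. Over the pooled classes, Cxcl2 was thus highest in CC chemokine-high cells, then in mature PMN-like and intermediate granulocyte-like cells, and lower in monocytes. Macrophage-like and, in DMSO, progenitor-like cells lay in between. Single clusters did not keep that order. Without the highest cell of each library, intermediate cluster O stood at 764 and 1417, above mature PMN-like cluster C at 150 and 1141. Intermediate cluster I stood at 14.9 and 150, below the immature monocyte-like cells. CC chemokine-high, mature PMN-like, intermediate granulocyte-like and immature monocyte-like cells each differed between the libraries by a log2 ratio of 1.74 to 2.36. The top of that range, in the intermediate granulocyte-like cells, lay above the Cxcl2 ratios of clusters J (1.29) and O (0.83) and below that of I (3.31), and the shares of these clusters in the class differed between the libraries.

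Cxcl3 had another order, given here for the named classes. In the DMSO library it was highest in the macrophage-like cells (cluster R), at 807 CPM, above the CC chemokine-high (592), mature PMN-like (266) and immature monocyte-like cells (229), whereas in the DAB library the CC chemokine-high cells led with 6519, ahead of macrophage-like (2730), mature PMN-like (2665) and intermediate granulocyte-like cells (2353). The macrophage-like and mature PMN-like intervals overlapped in the DAB library. In the DMSO library 1 mature PMN-like cell held 134 of the 519 Cxcl3 UMIs of its class. Without the highest cell that class stood at 199, below immature monocyte-like cells at 220. Unnamed cluster M stood at 745 and 4241 without its highest cells, beside 728 and 2462 in the macrophage-like cells. The log2 ratios were 4.06 in intermediate granulocyte-like, 3.46 in CC chemokine-high, 3.32 in mature PMN-like, 2.68 in immature monocyte-like and 1.76 in macrophage-like cells. The class with the highest Cxcl3 level was therefore not the same in both libraries, and in each of these classes the Cxcl3 ratio, other than in the macrophage-like cells, was larger than the Cxcl2 ratio. The DAB cells of cluster R also held fewer UMIs of complement markers that helped to name it, C1qa (96.7 and 11.9 CPM) and C1qb (303 and 35.8). The DMSO and DAB cells of the class were therefore not alike beyond the ligands. The name rests on 4 of 6 listed macrophage markers. Apoe, also listed, was low in cluster R, at 2.80 and 0.568 CPM, beside 71.6 and 493 in B cell-like cells.

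**Figure D2:**
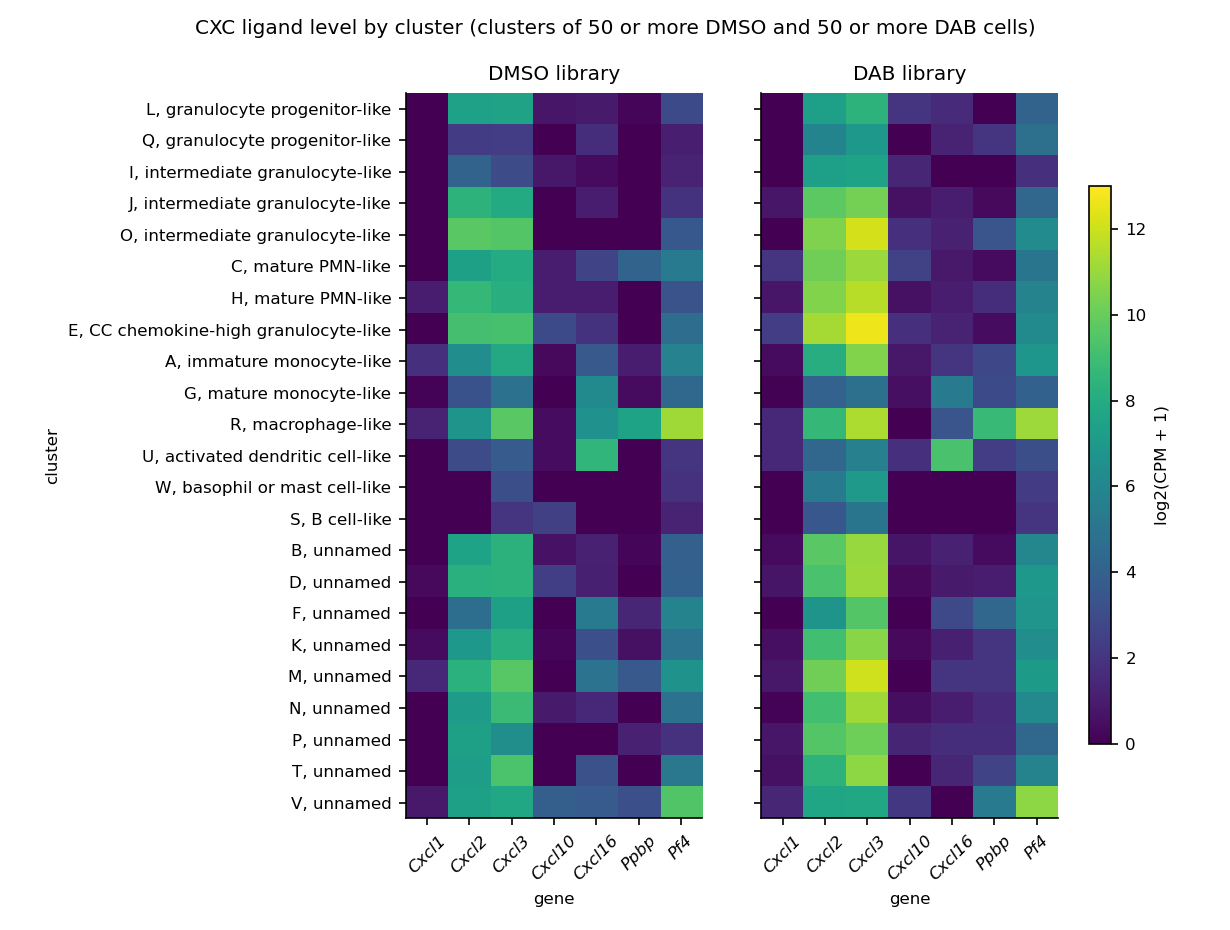
Levels of the 7 ligands, as log2 of CPM plus 1 (colour), in the 23 clusters that held 50 or more DMSO and 50 or more DAB cells, DMSO on the left and DAB on the right. The Cxcl2 and Cxcl3 columns brighten from left to right panel in all but a few rows, Pf4 is brightest in clusters R and V, and Cxcl16 in cluster U.

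Monocytes with MHC class II and granulocyte progenitors had the smallest class ratios among the classes with 200 or more cells in both libraries, and there the ratios depended on the clustering. In mature monocyte-like cells (cluster G, led by Ccl17 and H2-Eb1) Cxcl3 stood at 28.7 and 26.6 CPM and Cxcl2 at 8.64 and 15.8, while the B cell-like cells of the DAB library stood at 32.0 and 10.7. In the DAB library these cells thus lay near the level of free RNA in CPM. In the DMSO library they stood above the B cell-like intervals, 0.361 to 10.8 for Cxcl3 and 0 to 5.50 for Cxcl2. Counted per cell, their DAB means were 0.802 Cxcl3 and 0.476 Cxcl2 UMIs, beside 0.177 and 0.0591 in B cell-like cells. The DAB medians of all UMIs per cell were 29595 and 4867. With the B cell-like level subtracted in CPM, the log2 ratio of Cxcl2 turned from 0.87 to -0.76. That turn holds for subtraction in CPM only, and subtraction per cell was not run. The Cxcl3 log2 ratio of -0.11 moved to between 0.38 and 2.92 under the other clusterings and the one without doublet removal, and to -0.58 without the highest cell of each library, since 1 DAB cell held 162 of the 426 UMIs. In granulocyte progenitor-like cells, which make the primary granule proteases, Cxcl2 stood at 97.9 and 82.5 and Cxcl3 at 98.4 and 173, a log2 ratio for Cxcl3 of 0.81, which was counted as higher. Over the alternatives that ratio ran from -0.89 without alignment of the libraries and -0.52 at a coarser clustering to 3.56 at a finer clustering and 5.17 without cell cycle regression, and the Cxcl2 ratio of -0.25 reached 3.4 at the finer clustering. The class pools unlike clusters. In L, Cxcl3 stood at 176 and 339 and Cxcl2 at 174 and 161, whereas in Q, Cxcl3 stood at 4.18 and 120 and Cxcl2 at 3.9 and 57.7. The log2 ratios in Q, 4.85 and 3.89, were the highest of the 23 clusters for either gene. In CPM, both start from DMSO levels within the B cell-like intervals, 0.361 to 10.8 for Cxcl3 and 0 to 5.50 for Cxcl2. The DMSO cells of Q were deeper, with a median of 19958 UMIs beside 4043.5 in B cell-like cells. The 171 DMSO cells of Q held 15 Cxcl3 and 14 Cxcl2 UMIs, and the 136 B cell-like ones 2 and 0. L made up 559 of 766 DMSO but 189 of 488 DAB cells.

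Intermediate granulocyte-like cells pooled clusters I, J and O, and each showed the difference on its own. Cxcl3 stood at 6.80 and 182 in I, which carries Camp and Ltf, at 250 and 1228 in J, and at 741 and 4531 in O, which also expresses Mmp9. Cells of O made up 112 of 1481 DMSO cells and 441 of 1021 DAB cells, so the class ratio of 4.06 exceeded the ratios in J (2.30) and O (2.61). Over the 23 clusters that held 50 or more cells from both libraries, Cxcl3 was higher in 21 and Cxcl2 in 19, and neither was lower in any, beside 12.7% higher and 12.4% lower of all 225856 gene and cluster pairs. The clusters in which Cxcl3 was not higher were G and V, and Cxcl2 was not called in L, V, S and W, of which S and W had no Cxcl2 UMI in the DMSO library. These counts include clusters at or near the level of free RNA in CPM. Cxcl3 was higher in the B cell-like cluster S itself (2 and 33 UMIs). Cxcl2 was higher in cluster G, which lay near that level in CPM in the DAB library only, and above it per cell. In cluster U the DAB level of Cxcl2, 18.7 CPM, lay within the B cell-like interval of that library (5.33 to 19.1). Counted per cell, the DAB mean of Cxcl2 in U was 0.305 UMIs, beside 0.0591 in B cell-like cells. The DMSO levels of Cxcl3 in I, Q and W, in CPM, lay within the B cell-like interval of the DMSO library (0.361 to 10.8). Single cells held 71 of the 99 DAB Cxcl3 UMIs in W and 23 of the 34 DMSO Cxcl3 UMIs in U.

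**Figure D3:**
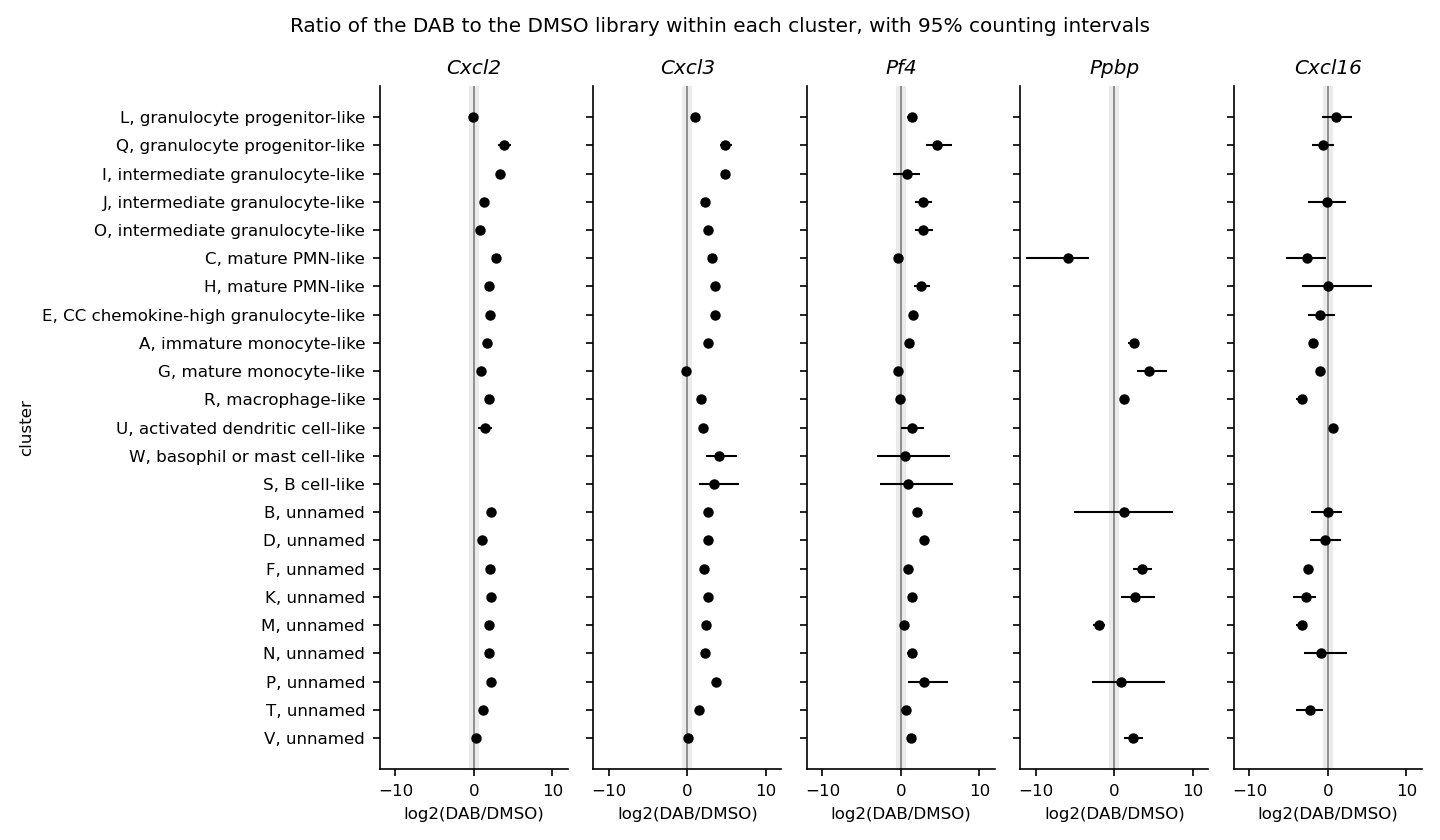
Log2 ratio of DAB over DMSO for Cxcl2, Cxcl3, Pf4, Ppbp and Cxcl16 in each of the 23 clusters, with 95% counting intervals and the range from -0.5 to 0.5 shaded. Clusters in which a library had no UMI of the gene have no point. The Cxcl3 points lie right of the shaded range in 21 clusters. Cxcl16 was counted as lower in 8, and further points, such as that of cluster E (-0.99), lie left of the range without a call.

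Cxcl2 and Cxcl3 were found in the same cells more often than in the rest of their cluster. Among DMSO cells with a Cxcl2 UMI a median of 36.4% over 17 clusters also had a Cxcl3 UMI, against 10.3% of the other cells of the cluster, and the share was higher in 16 of the 17. In the DAB library these medians were 70.0% and 31.8%, with 19 of 19 clusters higher. Cells with Cxcl16, by contrast, had Cxcl3 no more often in 3 of 6 DMSO clusters. Depth was fixed by thinning, but cells of 1 cluster can still differ in state, and the shared 110 bases bear on both genes.

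**Figure D4:**
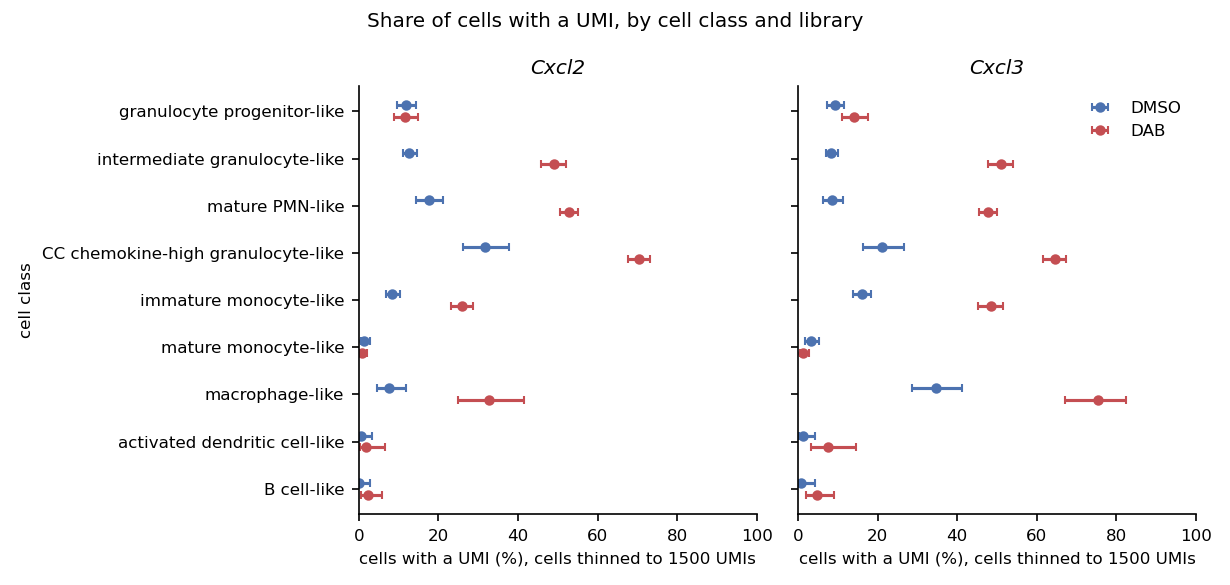
Share of cells with a Cxcl2 (left) or Cxcl3 (right) UMI after thinning to 1500 UMIs per cell, by class, in DMSO (blue) and DAB (red), with exact 95% binomial intervals. CC chemokine-high cells went from 31.8% to 70.5% for Cxcl2 and macrophage-like cells from 34.8% to 75.4% for Cxcl3, while mature monocyte-like and B cell-like cells stayed under 5% in both libraries.

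Fixing the mix of clusters left most of these ratios in place. With every cluster given its share of the DMSO library, the log2 ratio was 2.50 for Cxcl3, beside 2.80 as measured, and 1.72 for Cxcl2, beside 2.04. The classes with most Cxcl2 were larger in the DAB library, CC chemokine-high cells numbering 274 in DMSO and 1160 in DAB and mature PMN-like cells 585 and 1956. Cluster E alone held 4.60% of the Cxcl3 UMIs in the DMSO library and 22.9% in the DAB library, and 8.50% and 27.2% of the Cxcl2 UMIs.

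Cxcl1, the third CXCR2 ligand of the row, was found in few cells. It stood at 0.750 CPM in the DMSO library (69 UMIs in 32 cells) and 0.601 in the DAB library (84 UMIs in 53 cells), with a log2 ratio of -0.32 whose interval, -0.80 to 0.16, held 0. As a mean over cells the log2 ratio turned to 0.71 and was counted as higher, and without doublet removal it was 0.15. Where it was found differed: immature monocyte-like cells held 48 UMIs in 20 DMSO cells and 7 UMIs in 5 DAB cells, a log2 ratio of -3.11, and CC chemokine-high cells held 0 and 36 UMIs, the latter in 18 cells, which is at least 2.52-fold higher when the DMSO count is set to the floor of 3. The counting interval of that pair began lower, at 1.94-fold, and 1 cell held 11 of the 36 UMIs. The immature monocyte-like cells were the only cluster of the 23 in which Cxcl1 was counted as lower, and it was counted as higher in none. All gene and cluster pairs were lower in 12.4% and higher in 12.7%. Without the highest cell of each library the log2 ratio of Cxcl1 in immature monocyte-like cells was -3.54, and over the other clusterings it lay between -2.46 and -0.77.

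Pf4, the platelet factor, was not called over all cells (109 and 104 CPM, log2 ratio -0.06) but differed in most clusters. It was highest in the macrophage-like cells in both libraries, at 2303 and 2219 CPM, and 62.7% of these cells in DMSO and 70.1% in DAB had a Pf4 UMI after thinning. The B cell-like level was 1.49 and 2.91. The macrophage-like cells numbered 235 in DMSO and 140 in DAB, and they held 65.5% of the library's Pf4 UMIs in DMSO but 26.8% in DAB. Outside them, Pf4 was higher in 16 of the other 22 clusters and lower in none. Of all gene and cluster pairs over the 23 clusters, 12.7% were higher and 12.4% lower. Pf4 stood at 23.7 and 71.3 in CC chemokine-high cells, at 2.51 and 38.8 in intermediate granulocyte-like cells, at 3.97 and 21.8 in progenitor-like cells and at 52.7 and 111 in immature monocyte-like cells. The log2 ratios of these classes were 1.59, 3.95, 2.46 and 1.08. The intermediate granulocyte-like value exceeded that of each of its clusters, 0.76 in I (9 and 6 UMIs, not called), 2.79 in J and 2.82 in O, and O made up a larger share of the DAB cells, as given above. The immature monocyte-like value turned to -0.13 at a coarser clustering and -0.22 without cell cycle regression, and the progenitor value ran from -0.20, when the ligands were kept among the clustering genes, to 4.68 at a finer clustering. With the DMSO mix of clusters fixed, the log2 ratio over all cells was 0.49 and with the DAB mix 0.73, beside -0.06 as measured.

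Megakaryocyte and platelet markers were sparse where Pf4 was highest. In the macrophage-like cells the 9 markers summed to 17.9 CPM in DMSO and 7.38 in DAB, with 5 and 4 of 9 found. Most of the DMSO sum was Clec1b, with 42 of the library's 110 UMIs, and 5 UMIs in DAB. Gp9, Gp1bb and Gp1ba, which form the platelet receptor for von Willebrand factor, were at 0 in both libraries. They were rare over all cells too, with 13, 4 and 8 UMIs in DMSO and 18, 1 and 19 in DAB. Cluster V, which stayed unnamed but was led by Mt2, Ctla2a and Itga2b, held 84.4 and 503 CPM of the same markers, with 7 of 9 found in each library. Clec1b had 15 DMSO and 0 DAB UMIs in cluster V. The Pf4 level of cluster V, 716 and 1797, came from 9 DMSO and 10 DAB cells. In DMSO 1 cell carried 634 of the 815 UMIs, and in DAB 1 cell carried 532 of the 1082. Without the highest cell of each library the level was 160 and 976. Over all cells, of 8 platelet genes tested Itga2b and Tubb1 were higher, Treml1, Clec1b and Gp6 lower (Gp6 named after its values were seen), with a median log2 ratio of 0.20. That was 2 of 8 higher, beside 13.7% of all genes, and 3 of 8 lower, beside 16.5%.

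**Figure D5:**
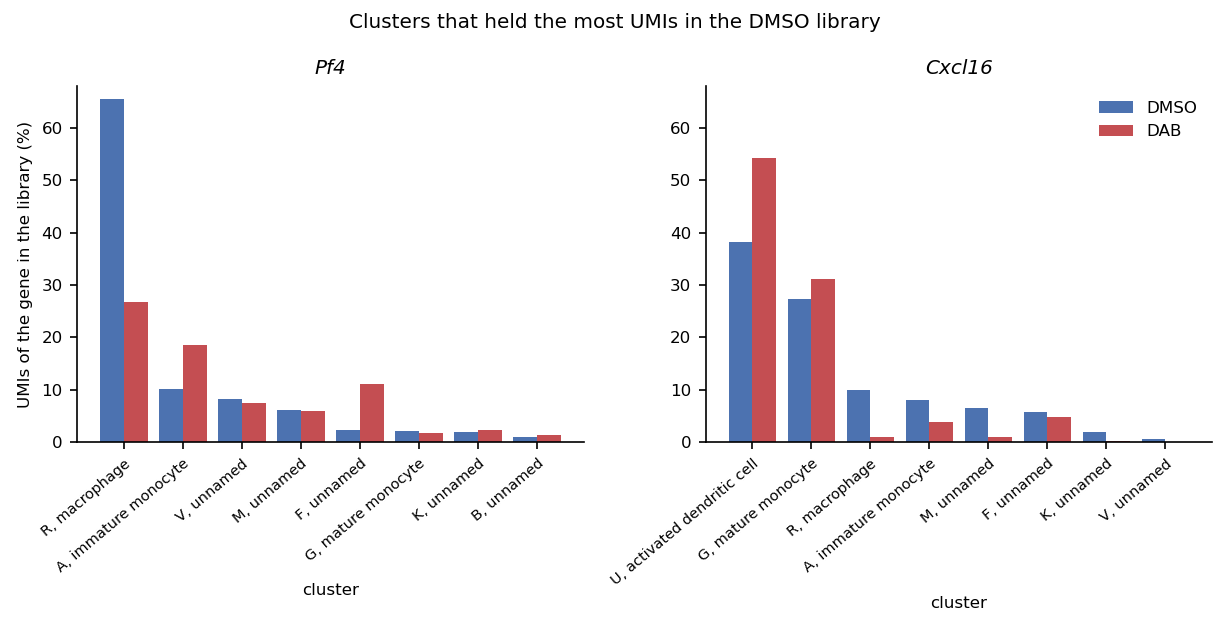
Share of a gene's UMIs in each library (percent, bars from 0) held by the 8 clusters with most UMIs of Pf4 (left) and Cxcl16 (right) in the DMSO library (DMSO blue, DAB red). The macrophage-like cluster R fell from 65.5% to 26.8% of Pf4 UMIs, and the activated dendritic cell-like cluster U had the tallest Cxcl16 bar in both libraries.

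Ppbp, which neighbours Pf4, was found in few cells. It had 667 UMIs in 77 DMSO cells and 1498 in 260 DAB cells, 7.25 and 10.7 CPM, a log2 ratio of 0.57 (0.43 to 0.70) that was 0.47 as a mean over cells. Macrophage-like cells again led, at 188 and 437 CPM, a log2 ratio of 1.21, and held 80.7% and 51.4% of the UMIs. With the DMSO mix fixed, the log2 ratio over all cells was 1.30. Immature monocyte-like cells stood at 1.09 and 5.96, and mature monocyte-like cells at 0.294 and 6.49, the latter from 3 DMSO and 34 DAB cells. Some class values came from single cells: all 16 DMSO UMIs of the mature PMN-like cells, in which Ppbp was counted as lower, lay in 1 cell, and 43 of the 46 DAB UMIs of the intermediate granulocyte-like cells, where DMSO had 0, lay in another. In unnamed cluster F, led by Il2ra and Cpa3, Ppbp stood at 1.65 and 18.6. After thinning, 25 of 33 DMSO cells with a Ppbp UMI also had a Pf4 UMI, and 40 of 66 DAB cells.

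Cxcl16 was the only ligand lower over all cells, at 30.1 CPM (2769 UMIs) in the DMSO library and 14.0 CPM (1955 UMIs) in the DAB library, with a log2 ratio of -1.10 (-1.19 to -1.02). Activated dendritic cell-like cells (cluster U, with Ccr7, Fscn1 and Ccl22) led in both libraries and went the other way, at 377 and 617 CPM, a log2 ratio of 0.71 (0.59 to 0.84). Their share with a Cxcl16 UMI after thinning was 39.9% and 61.9%, and B cell-like cells had no Cxcl16 UMI in either library. Macrophage-like cells stood at 96.0 and 9.65, a log2 ratio of -3.31, and 14.6% and 1.49% of them had a UMI. Mature monocyte-like cells stood at 74.4 and 37.9 (-0.97) and immature monocyte-like cells at 11.4 and 3.0 (-1.92). Over the 23 clusters Cxcl16 was lower in 8 and higher in cluster U alone, beside 12.4% lower and 12.7% higher of all gene and cluster pairs. Unnamed clusters M, led by Ccl4 and Ccl2, and F stood at 29.9 and 2.99 and at 37.9 and 6.32. Cluster U went from 164 DMSO to 105 DAB cells. With the DMSO mix fixed the log2 ratio over all cells was -0.27 and with the DAB mix -0.72. The value at a fixed mix thus depended on which mix was taken.

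Cxcl10, the interferon-induced member, was at the edge of detection, with 73 UMIs in 26 DMSO cells and 109 in 58 DAB cells. Its level was 0.793 and 0.780 CPM, a log2 ratio of -0.02 (-0.46 to 0.42). Class values rested on 1 or a few cells, as in the CC chemokine-high cells, where 9 of 12 DMSO and 12 of 20 DAB UMIs lay in 1 cell each. It was called in 3 classes, and none of these calls remained without the highest cell of each library, so a difference within classes was not detectable at this depth.

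Counted by class, the largest number of ligands past the limits was in immature monocyte-like cells. There 5 of 7 were higher (Cxcl2, Cxcl3, Cxcl10, Ppbp and Pf4), beside 14.2% of genes, and 2 lower (Cxcl1 and Cxcl16), beside 19.0%. Higher counts were 4 of 7 in intermediate granulocyte-like cells (25.1% of genes), and 3 of 7 in CC chemokine-high (9.50%), mature PMN-like (10.2%) and progenitor-like cells (19.2%). Mature monocyte-like cells had 2 higher (15.7%). Lower counts were 1 each in mature PMN-like (7.03% of genes), CC chemokine-high (11.7%) and mature monocyte-like cells (19.9%) and 0 in intermediate granulocyte-like (13%) and progenitor-like cells (16.2%). Of the 42 pairs, 20 were higher and 5 lower, and without alignment of the libraries 13 were higher. Without the highest cell of each library 17 were higher and 4 lower. The 4 include Cxcl3 in mature monocyte-like cells (-0.58), which was not called with those cells. The calls lost were those of Cxcl10 in immature monocyte-like, intermediate granulocyte-like and CC chemokine-high cells and of Ppbp in progenitor-like cells (1 DMSO UMI in all) and mature PMN-like cells, so the single lower calls of the mature PMN-like and CC chemokine-high cells were among them.

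Across the 23 DMSO clusters, the gene most like Cxcl2 among 8892 was Cd14, the lipopolysaccharide co-receptor (Pearson r of log2 levels 0.935), then Tlr13 (0.934) and Car4 (0.918). For Cxcl3 these were Serpinb2 (0.936), Serf1 (0.922) and Pttg1ip (0.894), for Cxcl16 Pdgfb (0.959), Aif1 (0.940) and 2200002D01Rik (0.930), for Ppbp Cck (0.927), Ccl7 (0.926) and Wnk2 (0.888), and for Pf4 Gm11683 (0.859), Mmp13 (0.845) and Gstm2 (0.816). Among the ligands, Cxcl2 and Cxcl3 reached 0.880, and Ppbp and Pf4 0.813, whereas Cxcl2 and Pf4 reached 0.232. Across the DAB clusters the 3 most similar genes shared 0 with these lists for Cxcl2, Cxcl3 and Ppbp and 1 each for Cxcl16 and Pf4. All points come from 1 library, clusters share its depth and free RNA, and the values are a description.

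Of 7 CXC receptor genes tested over all cells, 0 were counted as higher, beside 13.7% of all genes, and 3 as lower (Cxcr1, Cxcr6 and Ackr3, the latter pair named after their values were seen), beside 16.5%. The median log2 ratio of the list was -0.69, leaving out Ackr1, which had no DMSO UMI and so no ratio. Ackr1, also named after its values were seen, had 0 DMSO and 20 DAB UMIs, at least 4.39-fold higher against the floor of 3 counts, and was not called for that reason. Cxcr2, the receptor of the CXCR2 ligands, stood at 100.2 and 92.1 CPM over all cells, at 287 and 314 in mature PMN-like cells and at 154 and 66.8 in progenitor-like cells. Cxcr2 was counted as lower in progenitor-like cells (log2 ratio -1.20). It was counted as higher in CC chemokine-high cells (36.4 and 58.0) and macrophage-like cells (3.85 and 14.2). Cxcr4 stood at 34.1 and 26.4, Cxcr5 at 5.55 and 4.96, Cxcr1 at 2.56 and 1.20, and Cxcr3, the receptor of CXCL10, at 0 and 7 UMIs. Of the other CXC ligands Cxcl14 was lower and Cxcl5, the remaining one tested, was not called. The shedding proteases of CXCL16 were not called either, Adam10 at 65.2 and 61.4 and Adam17 at 60.0 and 47.3.

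Of 12 other NF-κB target genes, 0 were higher over all cells and 3 lower (Il1b, Il1a and Tnfaip3, named after their values were seen), beside 13.7% and 16.5% of all genes, with a median log2 ratio of -0.19. Ier3 stood at 491 and 458 CPM, Nfkbia at 360 and 294, Nlrp3 at 74.9 and 75.7 and Tnf at 45.1 and 53.9. Within classes the calls of these genes went both ways, and those named here were chosen after their values were seen. Ptgs2 (log2 ratio 1.46) and Cd83 (2.92, from 1 and 36 UMIs) were higher in CC chemokine-high cells. Icam1 was higher in mature PMN-like cells (0.50), and Tnf in progenitor-like (0.91) and mature monocyte-like cells (0.95). Tnf was lower in mature PMN-like cells (-0.75). In progenitor-like cells Il1b (-3.03), Il1a (-2.34), Tnfaip3 (-1.25) and Nfkbiz (-0.63) were lower. In intermediate granulocyte-like cells Il1a (0.94) and Icam1 (0.51) were higher, and Tnfaip3 (-1.01) and Nfkbiz (-0.78) were lower. Il1b was also lower in immature monocyte-like (-2.56) and mature monocyte-like cells (-3.01). The shares of all genes higher and lower in these classes are given above. Of 10 interferon-stimulated genes, the group to which Cxcl10 belongs, Usp18 and Cmpk2 were higher and Rsad2 and Ifit3 lower (Cmpk2 and Ifit3 named after their values were seen), with a median of -0.27. The shares of all genes over all cells were again 13.7% higher and 16.5% lower. Isg15 stood at 21.4 and 23.5 and Irf7 at 16.3 and 12.7.

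Among 8 factors of AU-rich mRNA decay and stability, 1 was higher and 2 lower, beside 13.7% and 16.5% of all genes, with a median of -0.06. Zfp36, which encodes TTP, stood at 158 CPM in the DMSO and 62.6 CPM in the DAB library (log2 ratio -1.34), and Zfp36l1 at 388 and 267. Hnrnpd was higher, at 107 and 152, and Elavl1, which stabilises such mRNAs, stood at 55.3 and 72.4. Zfp36 was also lower within progenitor-like (168 and 46.1), intermediate granulocyte-like (193 and 75.6) and mature PMN-like cells (290 and 128). It was lower too in CC chemokine-high (169 and 78.6), immature monocyte-like (116 and 46.8) and mature monocyte-like cells (172 and 64.6). In activated dendritic cell-like cells it stood at 184 and 172. Any part of Zfp36 in the Cxcl2 and Cxcl3 levels was not tested.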

How the data were processed

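MDSC were profiled with the 10x Genomics 5′ v2 chemistry. Per the labels and file headers, the deposited values are counts of UMIs, not normalized, for each gene in each barcode, which the authors made with Cell Ranger 7.0.0 on mm10. Barcodes above 10% mitochondrial UMIs and simulated-score doublets (768 DMSO, 1066 DAB) were removed. The limit of 4 median absolute deviations removed none. Of 400 planted doublets 47.2% were called, so doublets remain.

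Pearson residuals of 3000 variable genes, the ligands left out, were corrected for cell cycle and mitochondrial scores, taken to 40 components, aligned between libraries by mutual nearest neighbours and clustered with Leiden (resolution 0.9, seed 1; Python 3.11.15, numpy 2.4.6, scipy 1.17.1, igraph 0.11.9, leidenalg 0.10.2). A cluster was named from at least 3 markers raised by a log2 fold of 1, otherwise left unnamed. The members, lists, markers and comparisons were chosen with earlier results of these data known. Named genes were the members, the highest-level genes of each list (at most 4; others were chosen after their values were seen) and the 3 most correlated genes per member.

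Summed UMIs carry exact Poisson intervals, ratios exact conditional intervals and shares Clopper-Pearson intervals, all at 95%. A level of 0 was replaced by 3 counts for a bound, without a call. In simulated counts for all cells (16730 genes, 200 changed), 95.6% of intervals held the true ratio, and 94% of genes raised and 90% of those lowered 2-fold were called. These counts were drawn as independent Poisson counts, the model behind the intervals. UMIs that gather in single cells were not simulated, so this does not show how the intervals cover the measured counts. Alternatives were other cell filters, scalings, weightings, clusterings, thinnings and limits. Subtracting the B cell-like level, in CPM, and leaving out the highest cell were added after seeing the data. Promoters came from RefSeq, transcripts and positions from GENCODE vM21.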

Additional observations from a re-analysis of the deposited data

Results flagged for a closer look

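Cxcl16 and Ppbp differed in opposite directions between cell groups of the same 2 libraries. For Cxcl16, the log2 ratio of DAB over DMSO was 0.71 in the activated dendritic cell-like cluster U, from 1059 UMIs in each library, and -3.32 in unnamed cluster M, from 179 DMSO and 19 DAB UMIs. Without the highest cell of each library these values were 0.70 and -3.65. For Ppbp, it was 4.46 in the mature monocyte-like cluster G, from 3 DMSO and 104 DAB UMIs, and -1.90 in cluster M, where 67 DMSO and 19 DAB UMIs each came from 7 cells. Without the highest cells these were 4.67 and -2.15. With 1 library per condition, the difference between clusters was not tested.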

How the results depend on the processing

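Over all cells, 3 ligands were higher and 1 lower with no filter on cells, with no doublet removal, with median of ratios scaling, as a mean over cells and without the highest cell. As a mean over cells the third was Cxcl1 (0.71) in place of Ppbp (0.47), and with a limit of 1 on the log2 scale 2 were higher. Class and ligand pairs counted as higher fell from 20 to 13 without alignment. The highest class of a ligand matched in 7 of 14 cases at resolution 0.5, 7 without cell cycle regression and 6 without doublet removal. Cxcl1 turned sign at the DAB mix (0.0023, beside -0.61 at the DMSO mix). Class ratios counted as higher or lower turned sign in the following cases. Cxcl3 in progenitor-like cells did so at resolution 0.5 (-0.52) and without alignment (-0.89). Pf4 in immature monocyte-like cells did so at resolution 0.5 (-0.13) and without cell cycle regression (-0.22). With the ligands among the clustering genes, Pf4 in progenitor-like cells (-0.20) and Ppbp in mature PMN-like cells (2.67) did so. With the B cell-like level subtracted in CPM, Cxcl10 in CC chemokine-high cells (0.12) and Cxcl2 in mature monocyte-like cells (-0.76) did so. Ratios that were not called also changed sign: Cxcl1 (-0.32 to 0.71), Cxcl10 (-0.07 to 0.16) and Pf4 (-0.28 to 0.05) over all cells, Cxcl10 at a fixed mix (-0.31 to 0.07), Cxcl2 (-0.45 to 3.4), Cxcl10 (-1.70 to 0.88) and Cxcl16 (-3.91 to 0.14) in progenitor-like cells, Cxcl16 in intermediate granulocyte-like cells (-0.76 to 1.69), and Cxcl3 (-0.58 to 2.92) and Pf4 (-0.56 to 2.65) in mature monocyte-like cells. The cause was not tested. Cxcl2 and Cxcl3 were higher in intermediate granulocyte-like, mature PMN-like, CC chemokine-high and immature monocyte-like cells under every alternative run that formed the class, the Cxcl2 ratio of the CC chemokine-high cells lying between 0.78 and 2.15. All genes counted as higher made up 13.3% with a minimum of 200 UMIs and 10.2% with 1, beside 13.7%.

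No paired analysis was possible because each condition was 1 library. Depth limits Cxcl1 and Cxcl10, at under 1 CPM, to values from a few cells.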
